A study of Sus scrofa with 16 samples.

Results

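MBP, CNP, GFAP and SLC1A3 are 4 genes of glia and myelin, 4 of the 25880 genes counted in whole pituitaries of Złotnicka White pigs, and all 4 are among the 13621 genes that held enough counts for a comparison of the groups. They were taken by name from the count table, and they had been chosen by their measured levels in these same pigs and by how these differed between pigs and groups. Their levels, their group differences and their correlations are therefore given below as a description, without a test. They had been labelled as genes of the posterior lobe, and they followed other genes of that lobe unequally. Of 15 tested myelin genes 8 correlated over the pigs at 0.8 or more with the mean of the 4. Of 28 astrocyte and pituicyte genes 9 did, but others did not, such as VIM at 0.387. Over all 13621 genes tested the share was 1.16%. The vasopressin gene stood at 0.638 and the oxytocin gene at 0.437. LHX2, RAX and COL25A1, genes of the lobe's own glia that were picked after their values were seen, stood at 0.297 to 0.377.

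The study asked which pituitary genes differ with feed conversion, the amount of feed a pig eats for each unit of weight gained. Pituitary RNA of 16 gilts was sequenced, 8 with low feed conversion (LFC) and 8 with high feed conversion (HFC), all of the Złotnicka White breed, a native breed that had not been selected. No pig received a treatment, and all were housed and fed alike at 1 test station until slaughter at about 100 kg of body weight. The age label is day 180 in both groups. The study reports that HFC pigs reached this weight later, after more days in test. Time in test and feed conversion group therefore cannot be told apart here. The gilts were unrelated and came from different farms, so a difference between the groups can also be a difference between farms, and these cannot be told apart here. Each library was made from 1 whole gland, with both lobes and whatever stalk was taken with it.

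The posterior lobe of the pituitary is an extension of the hypothalamus. It holds the axon endings of neurons that release oxytocin and vasopressin, and these endings are wrapped by pituicytes, glial cells related to astrocytes. Axons reach the lobe through the stalk and the median eminence, where oligodendrocytes form myelin, the insulating membrane of axons. MBP, myelin basic protein, holds the layers of the myelin membrane together, and its locus also makes golli transcripts, which are found in cells other than oligodendrocytes. CNP, a phosphodiesterase, lies in the cytoplasm of the myelin sheath. GFAP is the intermediate filament protein of astrocytes, and SLC1A3 is a glutamate transporter of astrocytes and related glia.

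On the pig genome build Sscrofa11.1, MBP (ENSSSCG00000038767) spans chr1:147568191-147685288, and the Ensembl gene has 5 transcripts. The RefSeq gene of the same name begins further in, at 147649516, with 1 transcript, so the deposited MBP count covers a wider stretch than the RefSeq gene. GFAP (ENSSSCG00000017343) lies at chr12:18455952-18466680 and CNP (ENSSSCG00000017420) at chr12:20754183-20766478. CNP shares 1825 bases with DNAJC7, a chaperone gene, and the libraries kept no strand. DNAJC7 stood between 63.1 and 85.8 CPM in the 16 pigs, with 81.3 in LFC5 and 84.2 in HFC6, the pigs with the highest CNP. SLC1A3 (ENSSSCG00000016841) lies at chr16:21872993-21968671. All 4 are protein-coding genes.

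The libraries held between 6010629 and 11794256 counts per pig. Levels are given as CPM, counts per 1000000 counts of the library after TMM scaling, which compares the same gene between pigs. The files used here give no exon lengths, so no level of one gene is set against that of another. In RNA of a whole gland, more cells of a type and more RNA per cell cannot be told apart. In these genes 4 libraries stood apart, LFC1, LFC5, LFC7 and HFC6, and LFC5 and HFC6 stood furthest from the rest. Correlations among MBP, CNP, GFAP and SLC1A3 are therefore given with and without LFC5 and HFC6. Group fold changes of these genes are given without LFC5 or without HFC6, not without both. Correlations of other genes with these genes were taken over all pigs, LFC5 and HFC6 included.

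MBP split the pigs into 4 high samples and 12 samples at nearly the same level. In the LFC pigs, MBP ranged from 110 CPM in LFC6 over a median of 135.0 to 2863 in LFC5. In the HFC pigs it ranged from 104 CPM in HFC7 over a median of 123.9 to 1111 in HFC6. The groups overlapped from 110 to 1111 CPM, and the high samples were 3 LFC pigs and 1 HFC pig: LFC5 stood at 22.9 times the median of the 16 pigs, HFC6 at 8.87 times, LFC7 at 6.34 times and LFC1 at 4.62 times. The other 12 pigs lay between 104 and 146 CPM, within a factor of 1.4. MBP was read from at least 611 counts in each pig, so counting error was small beside the rise of the 4 high samples.

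CNP had the same 4 highest pigs, with a far smaller rise. It ranged from 56.6 CPM in LFC3 to 199 in LFC5 among the LFC pigs, with a median of 75.56, and from 55.1 CPM in HFC5 to 152 in HFC6 among the HFC pigs, with a median of 67.23. LFC5 stood at 2.87 times the median of all pigs, HFC6 at 2.18 times, LFC7 at 1.41 times and LFC1 at 1.31 times. The other 12 pigs lay between 55.1 and 77.0 CPM, a factor of 1.4 as for MBP. Both myelin genes thus had a level that the 12 pigs shared and from which the same 4 pigs departed upwards, and the groups overlapped for CNP too.

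GFAP was among the most variable genes of the gland. It ranged from 5.79 CPM in LFC2 over a median of 50.55 to 1487 in LFC5 among the LFC pigs, and from 1.99 CPM in HFC8 over a median of 18.57 to 1443 in HFC6 among the HFC pigs. LFC5 and HFC6 stood at 48.4 and 47.0 times the median of the 16 pigs and LFC1, at 633 CPM, at 20.6 times. LFC7, high in MBP, held only 68.7 CPM of GFAP, below the 83.9 of LFC3. The other 12 pigs had no common level, since they ran from 1.99 to 83.9 CPM, a factor of 42.3, and 22 to 673 counts stood behind these values.

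SLC1A3 followed GFAP in its 3 high pigs. It ranged from 4.26 CPM in LFC4 over a median of 6.252 to 58.6 in LFC5 among the LFC pigs, and from 1.63 CPM in HFC3 over a median of 4.752 to 73.1 in HFC6 among the HFC pigs. HFC6 was the highest pig at 14.3 times the median of all pigs, followed by LFC5 at 11.4 times and LFC1 at 7.86 times. LFC7 was next, at 1.42 times the median, close to LFC8 at 7.02 CPM. The other 12 pigs lay between 1.63 and 7.02 CPM, and their counts ran from 15 in HFC3 to 58 in LFC8, so neighbours in that range differed by few counts.

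**Figure D1:**
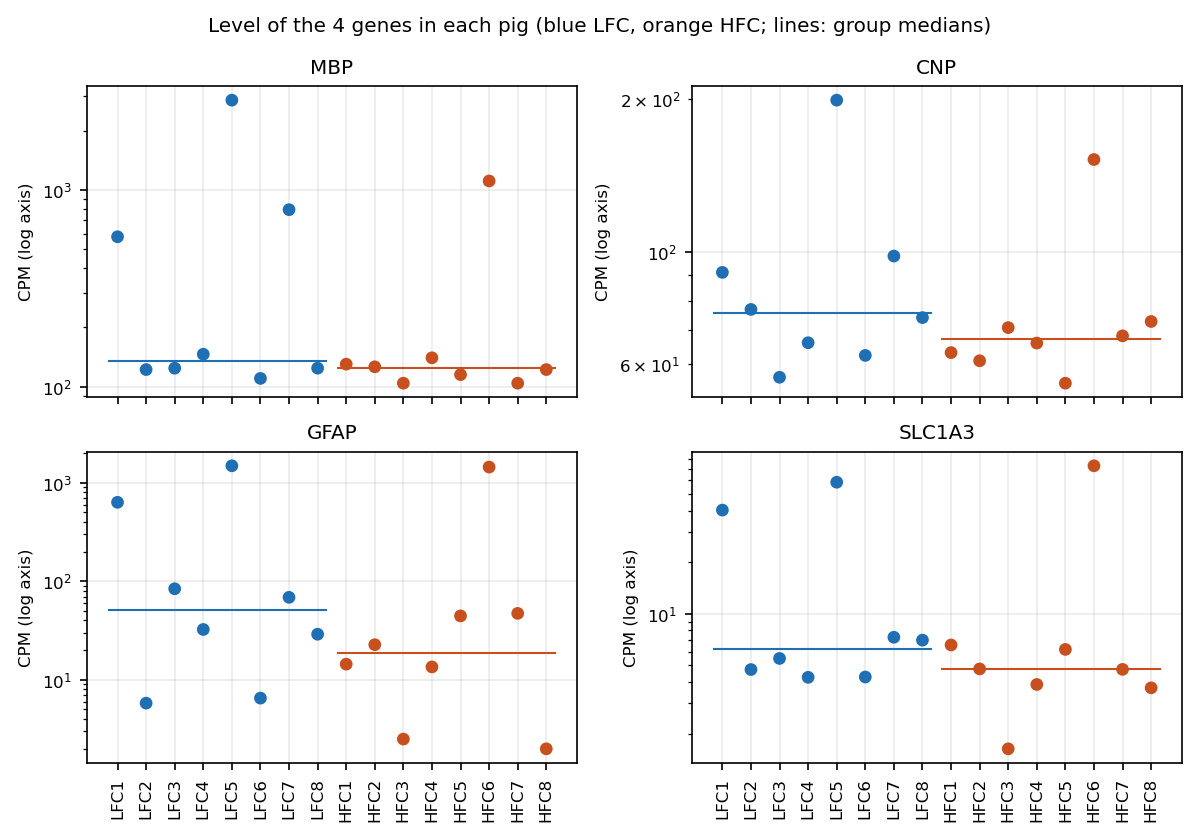
CPM of MBP, CNP, GFAP and SLC1A3 in each of the 16 pigs (points; blue LFC, orange HFC) on log axes that differ between panels, with group medians as lines. LFC5 and HFC6 are high in all 4 genes and LFC1 in all but CNP, where it stands at 1.31 times the median, while LFC7 is high in MBP at 794 CPM but not in GFAP at 68.7 CPM.

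The spread of these genes between pigs was large against that of the gland's other genes. The standard deviation (SD) of log2 CPM over the 16 pigs was 2.87 for GFAP, rank 7 of the 13621 genes tested, and 1.49 for both SLC1A3 and MBP, ranks 82 and 83. It was 0.51 for CNP, rank 2355. Over all genes tested the median SD was 0.309, so CNP stood within the upper 17.3% of genes and the other 3 within the upper 0.609%. The spread was wide inside both groups: the SD of GFAP was 2.83 in the LFC and 2.91 in the HFC pigs, and that of SLC1A3 was 1.48 and 1.54.

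The 4 genes rose and fell together over the 16 pigs, in part because of 2 pigs. The correlations that follow are of log2 CPM. The points share libraries, since both genes of a pair were read from the same library with 1 depth and 1 scaling. For MBP and CNP, Pearson's r was 0.936 and Spearman's rho 0.512, and r was 0.795 without LFC5 and HFC6. For GFAP and SLC1A3, r was 0.918 and rho 0.826, and without these pigs r was 0.827. LFC1 and LFC7, also high in MBP, were among these 14 pigs. Over the 12 pigs without high MBP, r was -0.0475 for MBP and CNP and 0.648 for GFAP and SLC1A3, so the likeness of the myelin pair rested on the 4 high pigs.

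Between the roles the likeness was lower without these pigs. MBP and SLC1A3 had an r of 0.869, and 0.676 without LFC5 and HFC6. MBP and GFAP had an r of 0.823, and 0.618 without them. CNP and GFAP had an r of 0.711, which fell to 0.237 without them, and CNP and SLC1A3 an r of 0.823, which fell to 0.438. Inside the groups r ran from 0.723 to 0.936 among LFC pigs and from 0.675 to 0.943 among HFC pigs over the 6 pairs. Each group held high pigs, and HFC6 was the only one in HFC, so these values do not show a likeness apart from them. Over the 12 pigs without high MBP, r was 0.315 for MBP and SLC1A3 and 0.21 for MBP and GFAP. For CNP it was -0.586 with GFAP and -0.313 with SLC1A3.

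Other genes of oligodendrocytes had the same 4 high pigs. Of 30 further genes of myelin and oligodendrocytes, 26 had a row in the count table, and in 17 of these 26 (65.4%) the 4 highest pigs were LFC1, LFC5, LFC7 and HFC6. Of all genes tested, 83 of 13621 (0.609%) had these 4 highest pigs. The myelin genes that passed the filter on low counts were 15 of the 26, and 7 of these 15 (46.7%) had them. This is the share to set beside that of all genes tested, since both leave out genes of low count.

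OPALIN, a membrane protein of oligodendrocytes, stood at 123 CPM in LFC5, 65.4 in HFC6, 24.6 in LFC1 and 22.8 in LFC7, and between 0.624 and 3.77 CPM in the other 12 pigs. MAG, an adhesion protein of the innermost myelin layer, stood at 60.0 CPM in LFC5, 33.3 in HFC6, 18.3 in LFC7 and 10.4 in LFC1, and at 0 to 2.42 CPM in the others. In LFC5, OPALIN reached 47.2 times its median. These genes were nearly absent from some pigs whose MBP and CNP were not: OPALIN had 0.762 CPM in HFC3, where MBP had 960 counts and CNP had 651. MAG had 0 counts in HFC3, LFC6 and HFC8, which allows up to 0.327, 0.514 and 0.271 CPM. In these 3 pigs MBP stood at 104, 110 and 122 CPM.

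**Figure D2:**
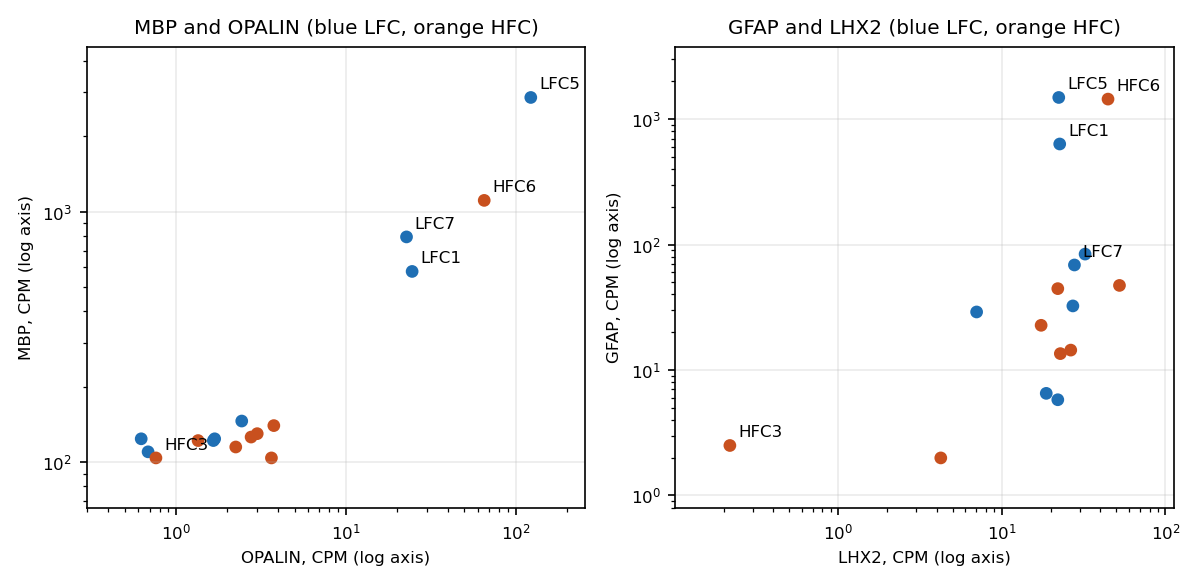
Left, MBP against OPALIN, and right, GFAP against LHX2, in CPM on log axes for the 16 pigs (points; blue LFC, orange HFC). Over the 12 pigs without high MBP, OPALIN runs from 0.624 to 3.77 CPM while MBP stays between 104 and 146 CPM, and the 3 pigs with the highest GFAP have an LHX2 of 22.3 to 44.6 CPM, within the range of the others.

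Among the genes of astrocytes and pituicytes the pigs that stood high most often were LFC1, LFC5 and HFC6. Of 32 such genes 28 were counted and all 28 tested, and in 11 of the 28 (39.3%) the 3 highest pigs were LFC1, LFC5 and HFC6, against 2.26% of all genes tested. Of the 15 tested myelin genes 8 (53.3%) had the same 3 highest pigs, so these pigs were not particular to the astrocyte genes. In 3 of the 28 (10.7%) the next pig was LFC7, as it was for SLC1A3. AQP4, the water channel of astrocyte end feet, stood at 162 CPM in LFC5, 148 in HFC6 and 122 in LFC1, at 41.6 in LFC7, and between 16.9 and 32.4 in the other 12 pigs. MLC1, a membrane protein of astrocyte end feet, reached 43.0 times its median in HFC6 and 40.7 times in LFC5, and 3.62 times in LFC7. FGFR3, a growth factor receptor, stood at 12.8 times its median in HFC6 and at 1.2 times in LFC7.

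LFC7 stood further from the median in MBP, OPALIN and MAG than in the astrocyte genes named here. Not all myelin genes did so. CNP at 1.41 times and PLLP at 2.7 times the median in LFC7 stood below MLC1 at 3.62 times. In LFC7, OPALIN was 8.75 times the median, beside 9.47 times in LFC1, and its MAG was 20.2 times against 11.4 times in LFC1. Its SLC1A2, the other main glutamate transporter of astrocytes, was 1.54 times the median against 5.85 times in LFC1, and its AQP4 was 1.45 times against 4.26 times. This contrast rests on 1 pig in each state and was not tested.

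**Figure D3:**
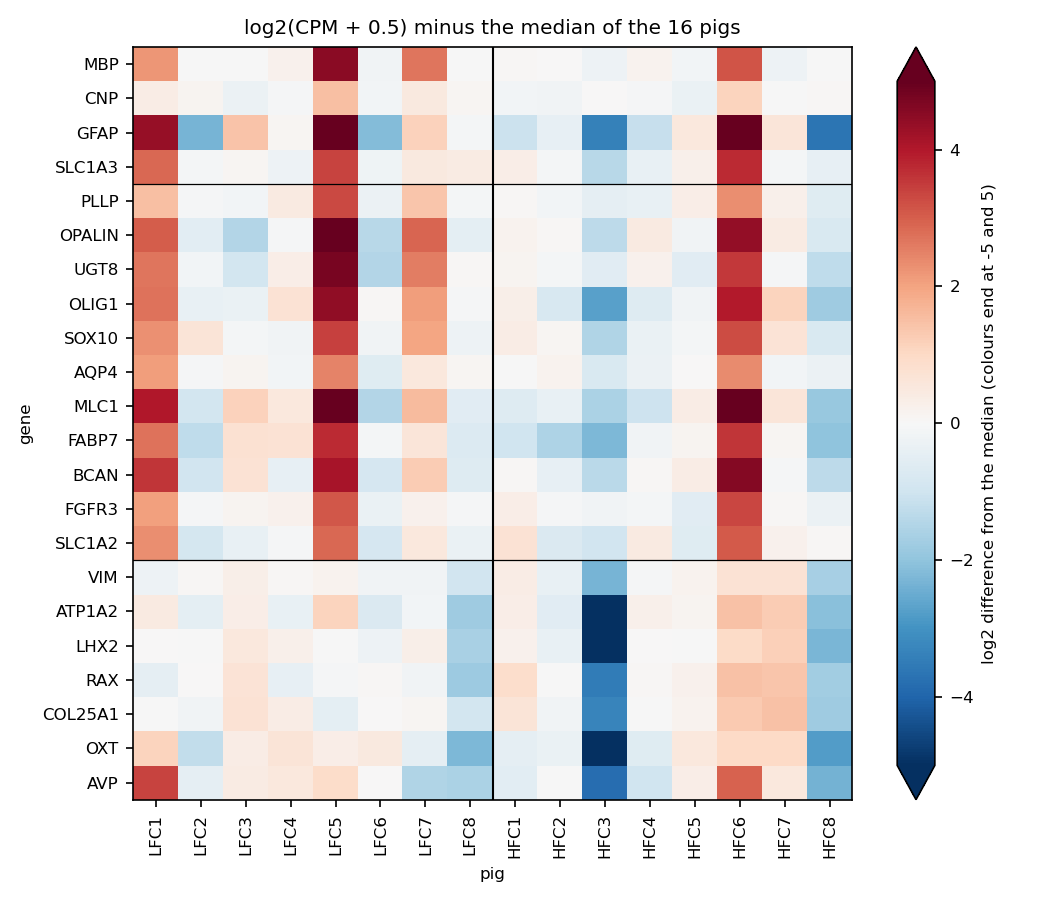
Log2 of CPM plus 0.5 minus the median of the 16 pigs, for the 4 genes (top), genes that follow them (middle) and genes of the posterior lobe that follow them less (bottom), with LFC pigs left of the line and HFC pigs right of it. LFC1, LFC5 and HFC6 are red across the upper 2 blocks, palest in LFC1 for CNP at 1.31 times the median, LFC7 is redder for MBP at 6.34 times than for GFAP at 2.24 times, and HFC3 and HFC8 are blue in the bottom block; OPALIN in LFC5, at 47.2 times its median, lies beyond the end of the colour scale.

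Of the genes that mark pituicytes, 3 picked after their values were seen followed the 4 genes less closely than the astrocyte genes named above. LHX2 and RAX, homeobox factors that pituicytes keep from the floor of the hypothalamus, and COL25A1, a membrane collagen, were taken as their markers. LHX2 stood at 22.6 CPM in LFC1, 22.3 in LFC5, 27.8 in LFC7 and 44.6 in HFC6, against a median of 22.47 over all pigs, and its highest pig was HFC7 with 52.4. RAX stood at 0.696 times its median in LFC1 and 0.949 times in LFC5, and COL25A1 at 0.983 and 0.698 times. HFC6 was high in all of them, at 1.99 times the median for LHX2, 2.94 times for RAX and 2.58 times for COL25A1. With the mean of the 4 genes, each standardised over the pigs, r was 0.377 for LHX2, 0.325 for RAX and 0.297 for COL25A1, against 0.974 for AQP4, and Spearman's rho was 0.585, 0.179 and 0.397. With GFAP alone r was higher, at 0.547 for LHX2, 0.487 for RAX and 0.511 for COL25A1, and HFC3 and HFC8 were low in GFAP and in all of them.

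The hormone genes of the posterior lobe gave a mixed picture. OXT, the oxytocin gene, was highest in LFC1 at 48.8 CPM, and stood at 28.4 in LFC5 and 45.6 in HFC6, against a median of 22.98, and at 0.695 times that median in LFC7. AVP, the vasopressin gene, stood at 120 CPM in LFC1 and 89.5 in HFC6, against 21.6 in LFC5 and 3.59 in LFC7, with a median of 11.03. The pig with the highest MBP thus had an OXT level of 1.24 times the median, and LFC7 stood below the median for both hormones. With the mean of the 4 genes r was 0.638 for AVP and 0.437 for OXT, and with GFAP alone it was 0.794 and 0.631.

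HFC3, LFC8 and HFC8 were the 3 lowest pigs for both hormone genes and for 8 of the 28 astrocyte and pituicyte genes (28.6%), LHX2, RAX, COL25A1 and VIM among them. They were the 3 lowest for none of the 15 myelin genes and for 2.01% of all genes tested. These 3 pigs were picked after the levels of these genes were seen, so the shares are a description and not a test. HFC3 had 0 counts of OXT and RAX, which allows up to 0.327 CPM, and 0.218 CPM of LHX2. OXT stood at 4.35 CPM in LFC8 and 2.8 in HFC8, and LHX2 at 7.02 and 4.24 CPM. GFAP was low in HFC3 and HFC8, at 2.5 and 1.99 CPM, but 29.0 CPM in LFC8, near the median. MBP and CNP kept the level of the other pigs in all 3, at 104 to 124 CPM for MBP and 70.9 to 74.2 CPM for CNP. How much of each lobe and of the stalk entered each library was not recorded in the labels, and its part in these levels was not tested.

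The genes most like the 4 were sought among all 13621 genes, by the r of log2 CPM with the mean of the 4. The closest was GPR37L1, a receptor of astrocytes and other glia, with an r of 0.975, followed by AQP4 with 0.974, PLLP, a myelin membrane protein, with 0.973, and TTYH1, a chloride channel gene of glia, with 0.970. GRIN1, the common subunit of NMDA glutamate receptors, and PPP1R14A, a phosphatase inhibitor, both had 0.961. BCAN, a proteoglycan of the brain matrix, had 0.953, FGFR3 had 0.952, OPALIN 0.950 and UGT8, which makes the galactolipids of myelin, 0.945. AQP4, PLLP, BCAN, FGFR3, OPALIN and UGT8 stood in the marker lists and the other 4 did not. GPR37L1 rose from at most 2.62 CPM in the 12 other pigs to 17.9 in LFC1, 41.2 in LFC5, 7.55 in LFC7 and 35.7 in HFC6. GRIN1 rose from at most 2.37 CPM to 20.7, 30.3, 3.71 and 47.7 in the same pigs, so LFC7 stood lowest of the 4 in it. All genes tested had a median r of -0.0092, and 158 of them (1.16%) had an r of at least 0.8.

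Each gene also had its own closest genes, which matched its role only in part. For MBP these were PLLP with an r of 0.960, OPALIN with 0.952 and GPR37L1 with 0.951. For GFAP they were astrocyte and progenitor genes, MLC1 with 0.985, BCAN with 0.960 and FABP7, a fatty acid binding protein of radial glia, with 0.945. For SLC1A3 they were AQP4 with 0.981, TTYH1 with 0.962 and GRIN1 with 0.959. CNP differed, with TUBB4A, a tubulin of oligodendrocytes and neurons, at 0.958, ZFP57, a zinc finger gene, at 0.947 and TSC22D4 at 0.938. Like CNP, TUBB4A and TSC22D4 were counted in all pigs, with 19.4 to 36.8 and 41.7 to 59.8 CPM in the 12 pigs without high MBP. ZFP57 (chr7:22607420-22612064 in RefSeq) lies beside the myelin gene MOG (chr7:22595565-22606137), and LFC5 was the highest pig for both.

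The marker lists of the gland's cell types differed in how far they followed the 4 genes. Of the myelin and oligodendrocyte list, 8 of 15 genes (53.3%) had an r of at least 0.8 with their mean, and of the astrocyte and pituicyte list 9 of 28 (32.1%). Of all genes tested it was 158 of 13621 (1.16%). These r values include the 4 pigs with high MBP, and likeness of the lists over the other 12 pigs was not examined. Over those 12 pigs the 4 genes themselves were not all alike, with an r of -0.0475 for MBP and CNP. Of 9 microglia and macrophage genes, P2RY12 and CX3CR1, both receptors of resting microglia, passed 0.8, with 0.812 and 0.856. Of 12 genes of axons and neurosecretory endings, GAD1, GAP43 and TUBB3 passed it, with 0.836, 0.826 and 0.806. Among 5 Schwann cell genes the one that passed was SOX10, with 0.935, which stands in the oligodendrocyte list too. No gene of the folliculostellate, intermediate lobe, anterior lobe endocrine, endothelial and blood, or fibroblast lists reached 0.8, and the 13 endocrine genes had a median r of -0.407.

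**Figure D4:**
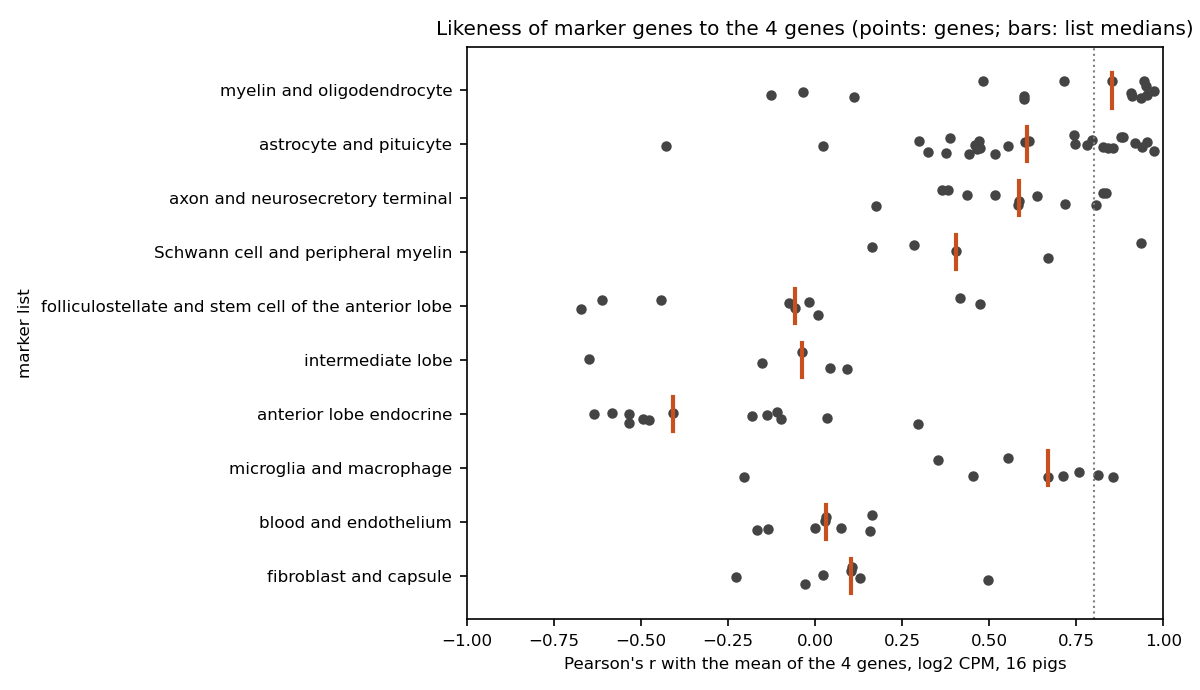
Pearson's r of log2 CPM over the 16 pigs between each tested marker gene (points) and the mean of the 4 genes, by marker list; red bars are list medians and the dotted line is 0.8. The median is 0.853 for the myelin list, 0.608 for the astrocyte list and -0.407 for the anterior lobe endocrine list.

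Between the feed conversion groups, the fitted levels of all 4 genes were lower in the HFC pigs, by amounts close to or below their standard errors (SE) for all but MBP. The log2 fold change, HFC over LFC, was -1.32 with an SE of 0.752 for MBP, -0.25 with an SE of 0.25 for CNP, -0.56 with an SE of 1.28 for GFAP and -0.34 with an SE of 0.774 for SLC1A3. Group means with SD over 8 pigs were 607.6 ± 947.5 CPM in LFC and 244.0 ± 350.4 in HFC for MBP. They were 90.65 ± 46.15 and 76.16 ± 31.03 for CNP, and 16.5 ± 20.96 and 13.07 ± 24.29 for SLC1A3. The means of GFAP were 293.2 and 198.7 CPM, with an SD of 503.0 in HFC. In each case at least 1 SD exceeded the difference of the means.

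These fold changes turned on which group held which high pig. Without LFC5 the log2 fold change of MBP was -0.23, and those of CNP, GFAP and SLC1A3 turned to 0.02, 0.70 and 0.32, higher in HFC. Without HFC6 they were -2.34, -0.47, -3.82 and -1.90. The log2 ratio of the group medians, which the high pigs move little, was -0.12 for MBP, -0.17 for CNP, -0.40 for SLC1A3 and -1.44 for GFAP.

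No gene of the myelin and astrocyte lists passed the test between the groups in the comparison across all genes. In the quasi-likelihood test of edgeR, adjusted over all 13621 genes after Benjamini and Hochberg, no gene of the table passed an adjusted p of 0.05 with a fold change of 1.3 (0% of genes), and the smallest adjusted p was 0.372. At an unadjusted p of 0.05 and the same fold change, 791 genes passed (5.81%), of which 551 were higher (4.05%) and 240 lower (1.76%) in HFC. DESeq2 called 29 genes at its adjusted p. Of the 43 genes of both lists in the edgeR fit, 0 passed at the unadjusted p. In DESeq2, 6 of 54 list genes passed at the unadjusted p, all lower in HFC, against 348 of all 18963 genes (1.84%) in that direction. The edgeR fit without the filter on low counts covered the same 18963 genes, and there 0 of 54 list genes passed. Of the 15 myelin genes 13 had a fold change below 0 and 2 above, with a median of -0.47, and of the 28 astrocyte genes 15 were below and 13 above, with a median of -0.01, beside -0.0126 over all genes.

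Among other abundant myelin genes, CLDN11, PLLP and BCAS1 had fitted values lower in HFC, and CNTN2 had one slightly higher. CLDN11, a tight junction protein of the sheath, had a log2 fold change of -0.49 with an SE of 0.375, and PLLP had -0.83 with an SE of 0.563. BCAS1, a marker of early myelinating oligodendrocytes, had -0.39 with an SE of 0.347, and CNTN2, an adhesion protein of axons and oligodendrocytes, 0.11 with an SE of 0.275. BCAS1 and CNTN2 were also less tied to the 4 genes, with an r of 0.601 and 0.483 with their mean. Of the most abundant astrocyte genes, SPARCL1, a matrix protein, had -0.03 with an SE of 0.179, VIM, an intermediate filament of glia and of other cells, 0.09 with an SE of 0.331, and GLUL, glutamine synthetase, -0.002 with an SE of 0.193. NDRG2 had -0.15 with an SE of 0.205 and ALDOC, the aldolase of astrocytes, -0.10 with an SE of 0.332.

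The lists as a whole also turned with the pig left out. With all pigs 28 of the 43 genes had a fold change below 0. Without LFC5 it was 13 of 43, with a median of 0.13, and without HFC6 it was 34 of 43, with a median of -0.34 and 13 genes (30.2%) lower in HFC at the unadjusted p, against 2.99% of all genes in that fit. Without the 4 pigs with the highest MBP, chosen after the levels were seen, 23 of 41 tested genes were below 0, with a median of -0.04. There 1 of the 41 passed at the unadjusted p, lower in HFC, against 461 of all 13707 genes in that direction. A direction for glia and myelin genes between LFC and HFC pigs therefore could not be given from these 16 pigs.

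**Figure D5:**
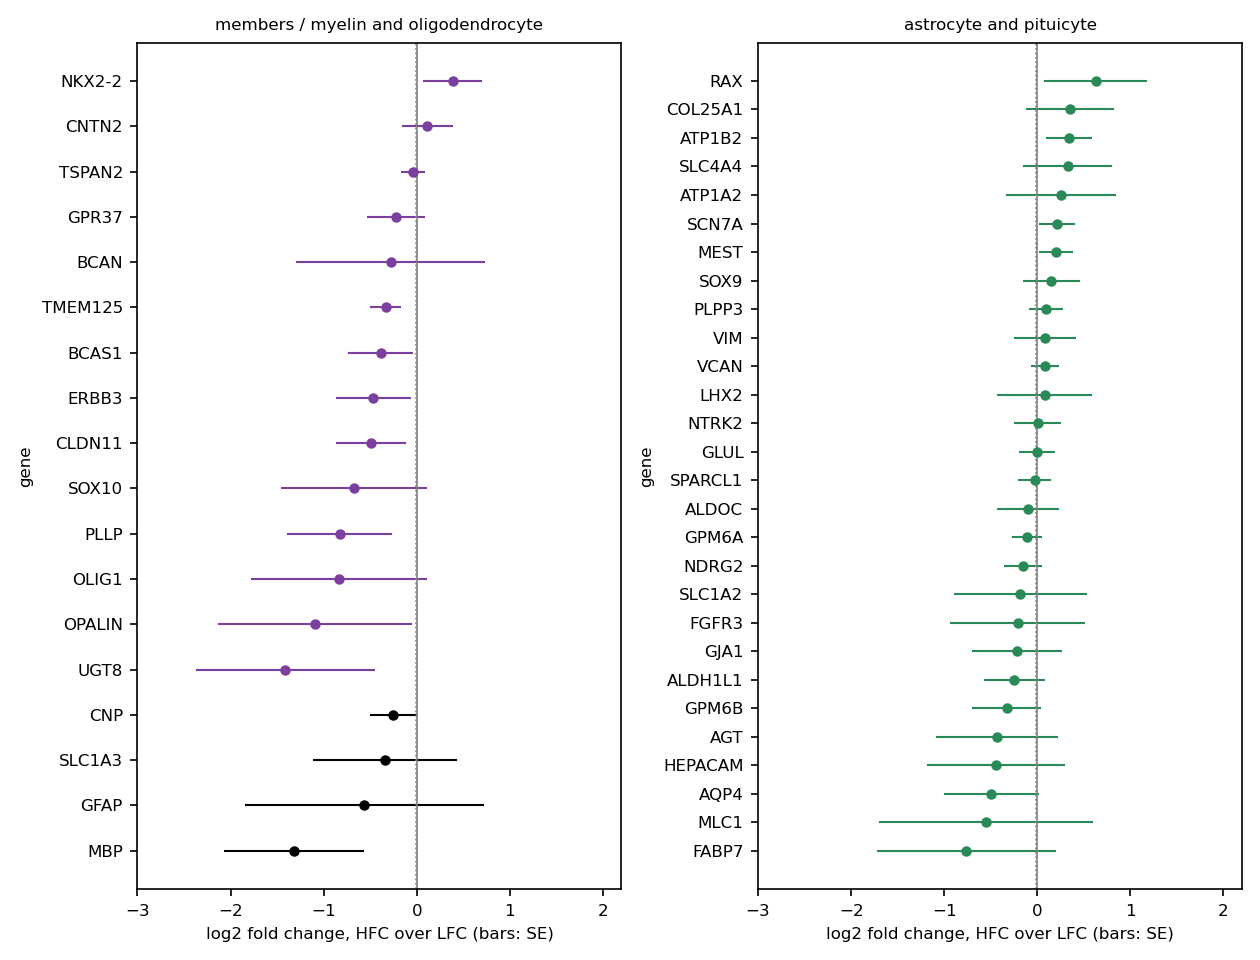
Log2 fold change, HFC over LFC, with its SE for MBP, CNP, GFAP, SLC1A3 (black) and the tested myelin genes, with 1 of them left out (left) and the 28 tested astrocyte and pituicyte genes (right); the dotted line is the median of all genes, -0.0126. Most bars of the astrocyte list cross 0, and the widest bars belong to genes carried by LFC5 and HFC6, such as GFAP with an SE of 1.28.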

How the data were processed

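Whole pituitaries of 16 Złotnicka White gilts were measured by RNA-seq, with non-stranded libraries and single-end reads. Per the study's methods, reads were trimmed with Flexbar and aligned to Sscrofa11.1 with the Ensembl annotation; RSEM with STAR and Bowtie 2 are both named, and which step gave the counts is not given in the sources used here. The submitters' processing notes name CASAVA 1.8.2. The authors deposited counts of reads per gene and pig, whole numbers without normalization. They also deposited their own comparison of the groups, which holds group means, fold changes and p-values; these were not used, and that table served only for symbols and positions. The feed conversion group of each pig was taken from the labels. There low and high FCR (feed conversion ratio) stand under a tag named shear force, and they were read as the feed conversion group. Libraries of the Puławska breed and qPCR measurements were left out.

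Of 25880 genes, 9550 took their symbol from the deposited table, 5875 from a table of gene identifiers, 323 from RefSeq by position, and 10132 had none. Counts were scaled by TMM and tested with edgeR 4.0.16 (filterByExpr, glmQLFit, glmQLFTest; R 4.3.3) over 13621 genes, called at an adjusted p of at most 0.05 with a fold change of at least 1.3. The filter needs enough counts in about as many pigs as a group holds, so it left out genes with low counts in most pigs. MAG and MOG were among them, and no fold change is given for these 2. Log2 CPM used a prior count of 2. DESeq2 1.42.0, limma 3.58.1 (voom), other scalings and filters, the replicate number as a block, and leaving out each pig were alternatives. The code was tested on simulated data. Members and marker lists were chosen with earlier results of these data known. Named were the 4 members; of each list the 5 genes of highest mean CPM and those of smallest p at an unadjusted p of 0.05; the 10 genes most like the mean of the 4 and the 3 most like each; and OXT and AVP. Some genes of the lists are not reported by name here. Other genes named (DNAJC7, MAG, MOG, SLC1A2, LHX2, RAX, COL25A1, P2RY12, CX3CR1, GAD1, PAX7) were chosen after their values were seen. Replicates were separate pigs, and chi-square per degree of freedom between pigs of a group was 11.4 to 85.9, above sampling noise. Counting error is smallest for MBP, with at least 611 counts per pig, and largest for SLC1A3, with as few as 15. A limit for 0 counts is 3 counts and covers counting error only.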

Additional observations from a re-analysis of the deposited data

Results flagged for a closer look

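A pig was singled out where its gap to the nearest pig of its group, on log2 CPM, was more than 0.526 of the range of the 8 pigs. This was asked of 32 pairs of a gene and a group, and 8 were found. Chance alone gives about 1 in 20, but MBP, GFAP, CNP and SLC1A3 had been chosen for how they varied between these pigs, and 5 of the 8 values come from 1 library, HFC6, so the number found is a description and not a test. In HFC6 these were MBP at 1111 CPM against 140 in the next HFC pig, GFAP at 1443 against 47.2, CNP at 152 against 72.9, SLC1A3 at 73.1 against 6.58 and PLLP at 51.1 against 12.6. In LFC5 they were CNP at 199 CPM against 98.1 and CLDN11 at 119 against 47.9. The remaining one was a low value, VIM in LFC8 at 250 CPM against 406 in the next lowest LFC pig. In the LFC group MBP, GFAP and SLC1A3 had more than 1 high pig, and no single pig passed.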

How the results depend on the processing

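No gene passed the adjusted p in edgeR under any alternative scaling, filter or pig left out, while DESeq2 called 29. At the unadjusted p, the 791 genes became 561 to 1754 when 1 pig was left out (561 without LFC6, 1196 without LFC2, 1754 without HFC5) and 1421 without the 4 pigs with the highest MBP. Of the 43 tested genes of the myelin and astrocyte lists 0 passed. The count was 6 of 54 in DESeq2, all lower in HFC, against 1.84% of all genes in that direction. On the same 18963 genes edgeR without a filter gave 0 of 54. With voom and sample weights 1 passed, lower in HFC, against 382 of all 13621 genes in that direction. Without those 4 pigs 1 of 41 passed, also lower, against 461 of 13707. When 1 pig was left out the count was 0 to 13, with 13 of 43 without HFC6, against 2.99% of all genes lower in HFC. The cause was not tested. The log2 fold changes of GFAP and SLC1A3 without HFC6 were -3.82 and -1.90. Of the 10 genes most like the members, 10 stayed among the first 50 with each pig left out and with library size alone, and 7 did by Spearman's rho. The fit with the replicate number as a block gave 559 genes higher and 247 lower in HFC at the unadjusted p and 0 in the lists; same-numbered pigs deviated with an r of -0.297 to 0.352, so the numbers do not pair the pigs. Levels per exon length were not run, since no exon lengths were at hand. Low counts limit SLC1A3 and the low end of GFAP.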

Other observations

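The lists that did not follow the 4 genes had their own group differences, none of which passed the adjusted p. Over all genes tested, 4.05% were higher and 1.76% lower in HFC at the unadjusted p with the fold change asked. Of 5 intermediate lobe genes, POMC, the precursor of melanocyte-stimulating hormone and corticotropin, PCSK2, the protease that processes it, and TBX19, its transcription factor, were lower in HFC at an unadjusted p of 0.05, with log2 fold changes of -1.23, -1.29 and -0.53 in edgeR. DRD2, the dopamine receptor of these cells, was higher, at 0.38, just short of the fold change asked. POMC had an r of -0.04 with the mean of the 4 genes, and PAX7, the factor of intermediate lobe cells, -0.15. Of 13 anterior lobe endocrine genes PRL, the prolactin gene, was higher, at 1.27, and CGA, the common hormone subunit, lower, at -0.56. Of 8 blood and endothelium genes VWF, FLT1 and CDH5 were higher, at 0.78, 0.59 and 0.43, and ALAS2 of red blood cells lower, at -0.97. Of 7 fibroblast genes COL1A2 was higher, at 0.89. No gene of the axon, Schwann cell, folliculostellate or microglia lists passed the unadjusted p with the fold change asked.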
